A study of Mus musculus with 2 samples.

Results

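Among the single cells isolated from the stria vascularis of the mouse cochlea, 56 of 834 droplets carried the endothelial and the pericyte program at once. A droplet is recognised by its cell barcode, and each captured transcript in it is counted once through a unique molecular identifier (UMI). A barcode was called dual if at most 10% of its UMIs were mitochondrial, if at least 4 of the 6 endothelial genes Pecam1, Cdh5, Cldn5, Flt1, Egfl7 and Ramp2 had a UMI, and if at least 4 of the 6 pericyte genes Rgs5, Pdgfrb, Vtn, Notch3, Kcnj8 and Abcc9 had one. For comparison, barcodes with at least 4 genes of one list and at most 1 of the other were called endothelial-only or pericyte-only. The barcodes were thus chosen by the measured UMIs of these 12 genes, whose levels are given as a description only. The questions were whether the dual profile is a weighted sum of both single programs, and which genes exceed any such mix.

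Stria vascularis tissue was microdissected from reporter mice aged 1 to 3 months, of both sexes, and pooled over 10 mice (20 cochleae) for each line before enzymatic dissociation. Tie2-GFP mice carry green fluorescent protein under the promoter of Tek (Tie2), an endothelial receptor gene, and NG2-DsRed mice carry the red protein DsRed under the promoter of Cspg4 (NG2), a pericyte proteoglycan gene. The methods describe sorting of fluorescent cells, with scatter gates against debris and doublets, as a step for preparations that needed enrichment; whether these pools were sorted is not given in the sources used here. Each pool gave 1 droplet library. With 1 pool per line there is no replicate, so no test was run. All 95% intervals below cover counting error only, unadjusted for the number of genes. Reporter line, any sorting, preparation batch and processing software version cannot be told apart between the libraries.

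Endothelial cells line the vessel lumen and seal it with junction proteins such as claudin-5 and VE-cadherin. Outside this lining lie the pericytes, embedded in the basement membrane of the vessel. They depend on endothelial PDGF-B acting on their receptor PDGFRβ. In the stria vascularis both cell types belong to the blood-labyrinth barrier, which guards the ionic environment that hair cells need. Whether both programs of a dual droplet came from 1 cell or from several was not tested.

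The Tie2-GFP library held 633 barcodes with 5432289 UMIs, of which 462 were within the mitochondrial limit. Of these, 26 were dual, a share of 5.63% (exact Clopper-Pearson 95% interval 3.71 to 8.14%), against 343 endothelial-only and 2 pericyte-only barcodes. The NG2-DsRed library held 201 barcodes with 1232599 UMIs, 197 of them within the limit. Here 30 were dual, a share of 15.2% (10.5 to 21.0%), against 15 endothelial-only and 87 pericyte-only barcodes. In both libraries, then, the dual class was larger than the single class of the cell type that the reporter does not mark. No barcode above the mitochondrial limit met the gene rule, and no barcode sequence occurred in both libraries. Lowering every barcode to one depth before applying the rule, at the 10th percentile of single-program barcodes, left 10 of 412 (2.43%) and 5 of 177 (2.82%) dual, so the dual shares depended on depth.

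Barcodes on either side of the threshold are given as a description of the rule. The 8 Tie2-GFP barcodes with exactly 4 genes of one list had medians of 50 UMIs for the endothelial and 55.5 for the pericyte rule genes, and the 8 such NG2-DsRed barcodes had 51 and 44. Just outside, barcodes with at least 4 endothelial but only 3 pericyte genes numbered 6 and 7, with medians of 73 and 39 UMIs and of 44 and 26 UMIs. The mirror case, 3 endothelial and at least 4 pericyte genes, occurred in 0 and 1 barcodes. All 12 rule genes were detected in 14 barcodes of each library. Outside the rule, the 8 Tie2-GFP barcodes with exactly 4 genes of one list held 1 to 10 of 15 further pericyte markers and the 8 of NG2-DsRed held 3 to 9.

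Dual barcodes were deep. In Tie2-GFP they held a median of 17598.5 UMIs (lowest 4601, highest 30936) and 4581.5 genes, against 7224 UMIs in endothelial-only and 3356 in pericyte-only barcodes. In NG2-DsRed the medians were 11394 UMIs (4889 to 25749) and 3711.5 genes in dual barcodes, 5788 UMIs in endothelial-only and 2923 in pericyte-only barcodes. The ranges overlapped: 22 of 343 and 2 of 15 endothelial-only barcodes exceeded the dual median, whereas no pericyte-only barcode did. A sum of both single medians came to 10580.0 and 8711 UMIs, so that the dual median was 1.66 and 1.31 times that sum. The rule asks for at least 4 genes of each list, which a deep barcode reaches more easily. The depth of dual barcodes is therefore in part set by their selection. Adding every endothelial-only barcode to every pericyte-only barcode gave 686 and 1305 sums with medians of 10615 and 9464 UMIs, and 20 of 26 and 20 of 30 dual barcodes were deeper than the median sum. Mitochondrial shares were slightly higher in dual barcodes, with medians of 2.80% and 3.00% against 1.73% and 2.28% in endothelial-only barcodes.

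**Figure D1:**
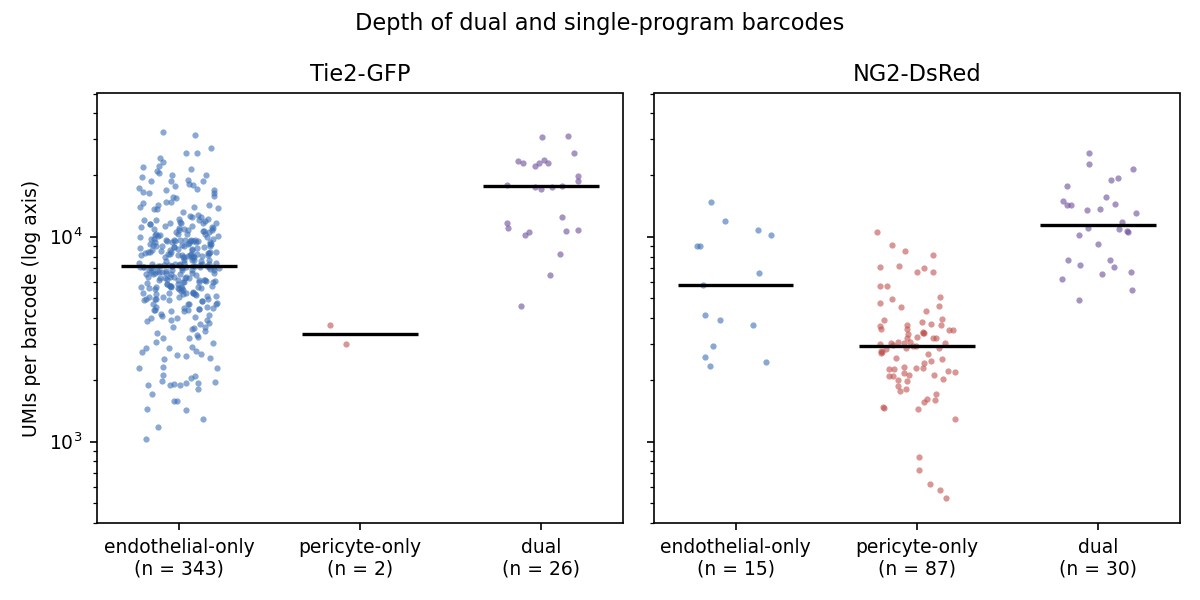
UMIs per barcode (log axis) in endothelial-only, pericyte-only and dual barcodes of each library; each point is a barcode and the black line is the median of its class. Dual medians lie at 17598.5 (Tie2-GFP) and 11394 UMIs (NG2-DsRed), above the medians of both single classes, while the ranges of dual and endothelial-only barcodes overlap.

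Both reporter genes were read in the dual barcodes of both lines. Levels are given as CPM, the UMIs of a gene scaled to a total of 1000000 non-mitochondrial UMIs, summed over the barcodes of a class. Tek stood at 223 CPM (95% Poisson interval 181 to 272) in Tie2-GFP dual and 297 in endothelial-only barcodes, and at 216 CPM (171 to 269) in NG2-DsRed dual against 297 in endothelial-only and 0 in pericyte-only barcodes. Cspg4 stood at 48.2 CPM (29.9 to 73.7) in Tie2-GFP dual barcodes, in 11 of 26 of them, and at 0 in 343 endothelial-only barcodes. In NG2-DsRed, Cspg4 reached 158 CPM (119 to 204) in dual barcodes, in 19 of 30, against 733 CPM in pericyte-only and 0 in endothelial-only barcodes. Pecam1 and Cspg4 were co-detected in 11 of 26 and 17 of 30 dual barcodes, a description only, since Pecam1 belongs to the rule. They were also co-detected in 7 of 87 NG2-DsRed pericyte-only barcodes, and in 0 of 343 and 0 of 15 endothelial-only barcodes. Over all barcodes within the mitochondrial limit, 13 and 29 held both genes, of which 11 and 17 were dual.

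Among the rule genes, Rgs5, a regulator of G protein signalling and the most abundant pericyte marker here, was present in all 56 dual barcodes. It ranged from 798 to 8440 CPM over the 26 Tie2-GFP dual barcodes, with a median of 4799, and from 1556 to 14329 CPM over the 30 NG2-DsRed ones, with a median of 4880. The lowest dual barcodes therefore overlapped the highest endothelial-only ones, which reached 1465 CPM in Tie2-GFP and 4583 CPM in NG2-DsRed. Flt1, a VEGF receptor, was summed to 1773 CPM in Tie2-GFP dual barcodes (25 of 26 positive) and to 921 CPM in NG2-DsRed dual barcodes (30 of 30). In pericyte-only barcodes Flt1 was at 0.

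Free RNA was gauged in another cell type, the pigmented intermediate cells, taken as barcodes with at least 4 of their 10 markers and any number of vascular genes, a choice made after seeing the data. In Tie2-GFP 50 barcodes met this, none of them dual, with Rgs5 and Flt1 in 2 each (2.198 CPM, median depth 19731.5 UMIs). In NG2-DsRed 27 did, of which 2 were dual barcodes. In the other 25, Rgs5 was found in 2 (8.34 CPM, 9924 UMIs) and Flt1 in 1 (4.17 CPM). Of 4 genes outside the rule, the pericyte marker Ndufa4l2 and the endothelial receptor gene Tek were at 0 in all 50 and all 25, and the pericyte marker Higd1b was at 0 in the 50 and in 1 of the 25 (4.17 CPM). The glucose transporter gene Slc2a1 was read in 39 of the 50 (92.3 CPM) and 8 of the 25 (37.5 CPM). In dual barcodes Ndufa4l2 stood at 262 and 509 CPM, Tek at 223 and 216, Higd1b at 202 and 362 and Slc2a1 at 1318 and 885. With the 2 dual barcodes kept, Rgs5 was at 790.3 CPM over the 27. The intermediate cell barcodes used as a reference below additionally held at most 1 rule gene of each list (50 and 24 barcodes). Rgs5 in the endothelial-only barcodes was low in Tie2-GFP (40.6 CPM, 37 of 343 positive, median depth 7224 UMIs) but stood at 972 CPM in NG2-DsRed (10 of 15 positive, 5788 UMIs), a description only, since the class may hold 1 pericyte rule gene. The 15 pericyte markers outside the rule had 13 UMIs (133 CPM) in the 15 NG2-DsRed endothelial-only barcodes and 64 UMIs (23.0 CPM) in the 343 of Tie2-GFP.

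Markers outside the rule were read in the same barcodes. Of 25 further endothelial markers, the median dual barcode had 23 in Tie2-GFP and 22 in NG2-DsRed, and of 15 further pericyte markers it had 10 and 9. The median endothelial-only barcode had 0 and 1 of the 15 pericyte markers. In NG2-DsRed the 25 endothelial markers summed to 10470 CPM in dual barcodes, 68.6% (64.6 to 72.9%) of their 15267 CPM in endothelial-only barcodes, and the 15 pericyte markers summed to 2384 CPM, 29.6% (27.3 to 32.01%) of their 8058 CPM in pericyte-only barcodes. Both programs were therefore present at a reduced share, and the shares were close to adding up to the whole. In Tie2-GFP the corresponding shares were 69.2% (67.1 to 71.3%) of the endothelial-only level and 22.1% (20.3 to 24.0%) of the level in pericyte-only barcodes of the other library, over genes matched by Ensembl ID.

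Named members of the pericyte list followed the same order. Ndufa4l2, a marker of pericytes, stood at 509 CPM in NG2-DsRed dual barcodes, between 30.7 in endothelial-only and 1217 in pericyte-only barcodes. Higd1b, another pericyte marker, stood at 362 CPM between 10.2 and 911. Gucy1b1, a subunit of the nitric oxide receptor, stood at 293 CPM between 10.2 and 1007, and the intermediate filament gene Des at 105 CPM between 30.7 and 406. In Tie2-GFP dual barcodes these 4 genes stood at 262 (Ndufa4l2), 202 (Higd1b), 255 (Gucy1b1) and 131 CPM (Des), and in Tie2-GFP endothelial-only barcodes each of the 4 was at or below 1.44 CPM. On the endothelial side, the glucose transporter gene Slc2a1 stood at 1318 CPM in Tie2-GFP dual and 2144 in endothelial-only barcodes, and at 885 against 1791 CPM in NG2-DsRed. The efflux pump gene Abcb1a was nearly level in NG2-DsRed, at 597 and 614 CPM.

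The whole profile was then set against a mix. For each library the share w of the endothelial-only profile and 1 − w of the pericyte-only profile that best described the summed dual UMIs was fitted by maximum likelihood, leaving out mitochondrial and rule genes. The remaining distance is the percent of UMIs that would have to move to another gene to turn the mix into the dual profile. In NG2-DsRed the fitted weights were 67.2% (likelihood interval 66.9 to 67.5%) endothelial and 32.8% pericyte. Likelihood intervals of the weights hold both reference profiles fixed, so they leave out the counting error of the references. The distance fell from 17.4% for the endothelial profile alone and 30.1% for the pericyte profile alone to 13.1% for the mix, where counting error alone would give 8.47%. The mix was thus nearer than either single profile, and a remainder beyond counting error was left.

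In Tie2-GFP the pericyte reference of the same library rested on 2 barcodes and 6557 UMIs, in which 3 counts already equal 458 CPM. With it the fitted weights were 93.2% (93.1 to 93.3%) endothelial and 6.83% pericyte, an interval that leaves out the counting error of these 2 barcodes. The distance to the mix, 10.9%, was no smaller than the 10.8% to the endothelial profile alone. With the 87 pericyte-only barcodes of NG2-DsRed as reference, over the 27040 genes listed in both files, the weights were 83.6% (83.3 to 83.8%) and 16.4%. The distance was then 10.1%, against 10.7% for the endothelial and 34.7% for the pericyte profile alone and 5.14% from counting error. This reference comes from another pool and library, and what that adds to the distance was not tested. For NG2-DsRed, the same swap of the endothelial reference to Tie2-GFP raised the distance from 13.1% to 18.5%.

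Gene by gene, most of the dual profile lay near the mix. The mix was fitted to these same UMIs, and nearness to the endothelial-only profile alone was not counted. The shares below therefore do not show that a pericyte part is needed. Among genes with at least 50 UMIs in dual barcodes, 97.8% of 1208 in NG2-DsRed were within 2-fold of the mix, and 88.5% within 1.5-fold. With the Tie2-GFP endothelial reference it was 91.8% of 1201 within 2-fold and 70.7% within 1.5-fold. In Tie2-GFP it was 98.1% of 1458 with the pericyte reference from NG2-DsRed and 96.2% of 1466 with its own. With the NG2-DsRed reference 26 Tie2-GFP genes were more than 2-fold higher and 1 lower, and with its own reference 51 were higher and 5 lower. The genes named next were chosen after their values were seen. Over genes matched between libraries, Cebpb, a transcription factor of acute responses, stood at 1639 CPM against 247.6 in the mix, Gm13889 at 1301 against 242, and the matrix protein gene Spp1 at 222 against 53.3, with 38.5% of its UMIs from 1 barcode. The 1 lower gene with that reference was Ccn1, a matricellular gene, at 132 against 482 CPM. In NG2-DsRed 20 genes were higher and 7 lower with its own references and 61 and 38 with the Tie2-GFP endothelial reference. The 7 included Acta2 (199 against 985 CPM), Tagln (232 against 746) and Ptgds (420 against 1963).

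**Figure D2:**
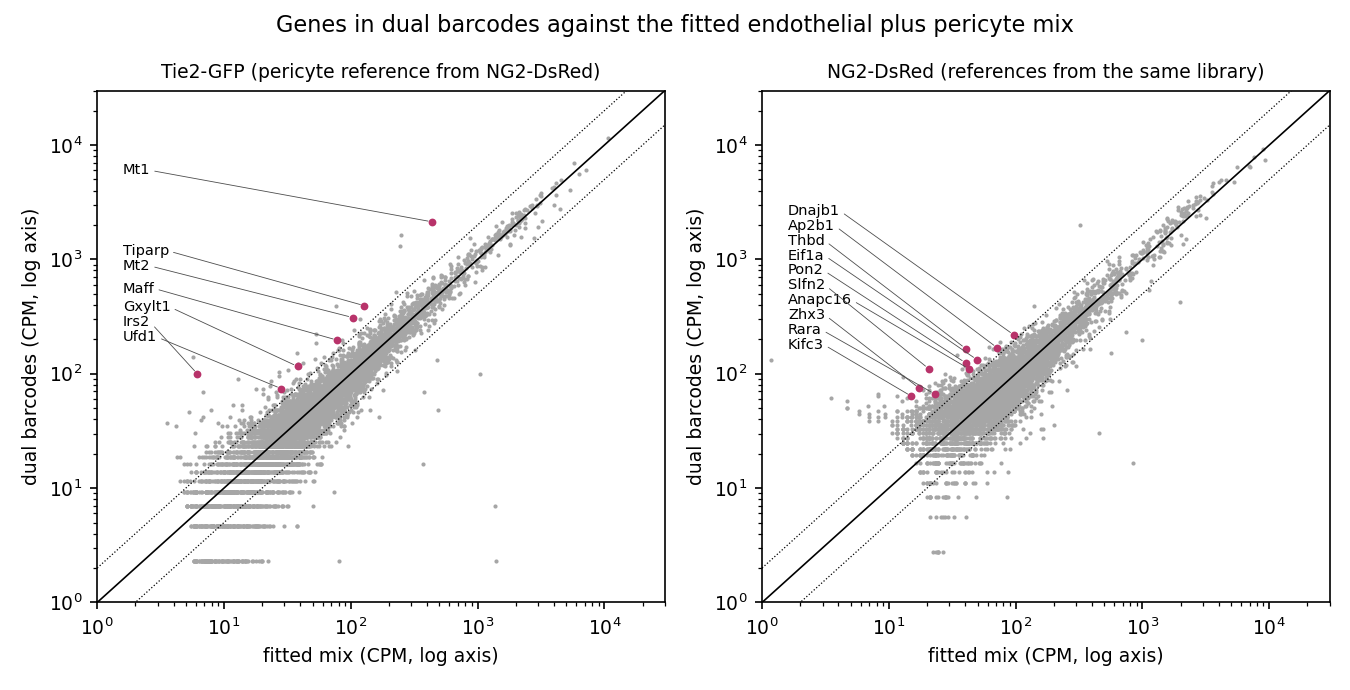
Level of each tested gene in dual barcodes against its level in the fitted mix (CPM, both axes log); the solid line marks equality and the dotted lines a factor of 2. Coloured points are the genes above any mix that met the minima given in the text, 7 in Tie2-GFP with the pericyte reference from NG2-DsRed and 10 in NG2-DsRed with its own references; most grey points lie between the dotted lines.

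Contractile mural genes were at a lower share of the NG2-DsRed pericyte-only level than the other pericyte markers. The 14 genes summed to 1878 CPM in NG2-DsRed dual barcodes, against 10279 in pericyte-only barcodes and 3859 in the mix, or 0.49 of the mix. In Tie2-GFP, with the NG2-DsRed pericyte reference, they summed to 1213 CPM, 0.53 of the mix, and the 15 other pericyte markers were at 1.33 of it. With the 2 pericyte-only barcodes of Tie2-GFP the contractile genes were at 1.67 of the mix and the other pericyte markers at 3.96 of it, but that reference held 7 UMIs of the contractile genes in all. As a share of that pericyte-only level, the contractile genes were at 113% (54.3 to 282%) and the other pericyte markers at 28.4% (20.7 to 39.8%), the opposite order to the NG2-DsRed reference. Acta2, smooth muscle actin, was detected in 12 of 30 NG2-DsRed dual barcodes (199 CPM) and in 33 of 87 pericyte-only barcodes (2940 CPM). In Tie2-GFP Acta2 was detected in 2 of 26 dual barcodes (48.2 CPM). Myl9, a myosin light chain gene read in nearly all pericytes, was present in 30 of 30 NG2-DsRed dual barcodes at 664 CPM, between 81.9 in endothelial-only and 2267 in pericyte-only barcodes. As a share of the pericyte-only level of NG2-DsRed, the contractile genes stood at 18.3% and 11.8% in NG2-DsRed and Tie2-GFP dual barcodes, lower than the 29.6% and 22.1% of the other pericyte markers. Adding contractile barcodes of NG2-DsRed as a separate reference, an alternative chosen after seeing the data, gave endothelial weights of 82.9% in Tie2-GFP and 66.1% in NG2-DsRed.

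Weights also varied between dual barcodes. In NG2-DsRed the endothelial weight of a single barcode ran from 31.4 to 85.3%, with a median of 66.2%; 5 of 30 were below 50% and 22 lay between 25 and 75%. In Tie2-GFP, with the NG2-DsRed pericyte reference, it ran from 64.6 to 97.6%, with a median of 83.0%. No Tie2-GFP dual barcode was therefore mostly pericyte by this fit, and its 8 barcodes at the threshold of the rule ran from 64.9 to 97.6%. Multiplying weight by depth gives the UMIs assigned to each part. In NG2-DsRed the endothelial part had a median of 7830 UMIs and the pericyte part of 3864, next to 5788 and 2923 in whole endothelial-only and pericyte-only barcodes. In Tie2-GFP the parts had medians of 15299 and 2509.5 UMIs, next to 7224 and 3356. At the median, both parts of an NG2-DsRed dual barcode thus exceeded a whole barcode of their type, whereas in Tie2-GFP the endothelial part did and the pericyte part did not. These amounts are a description only, since the rule favours deep barcodes.

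**Figure D3:**
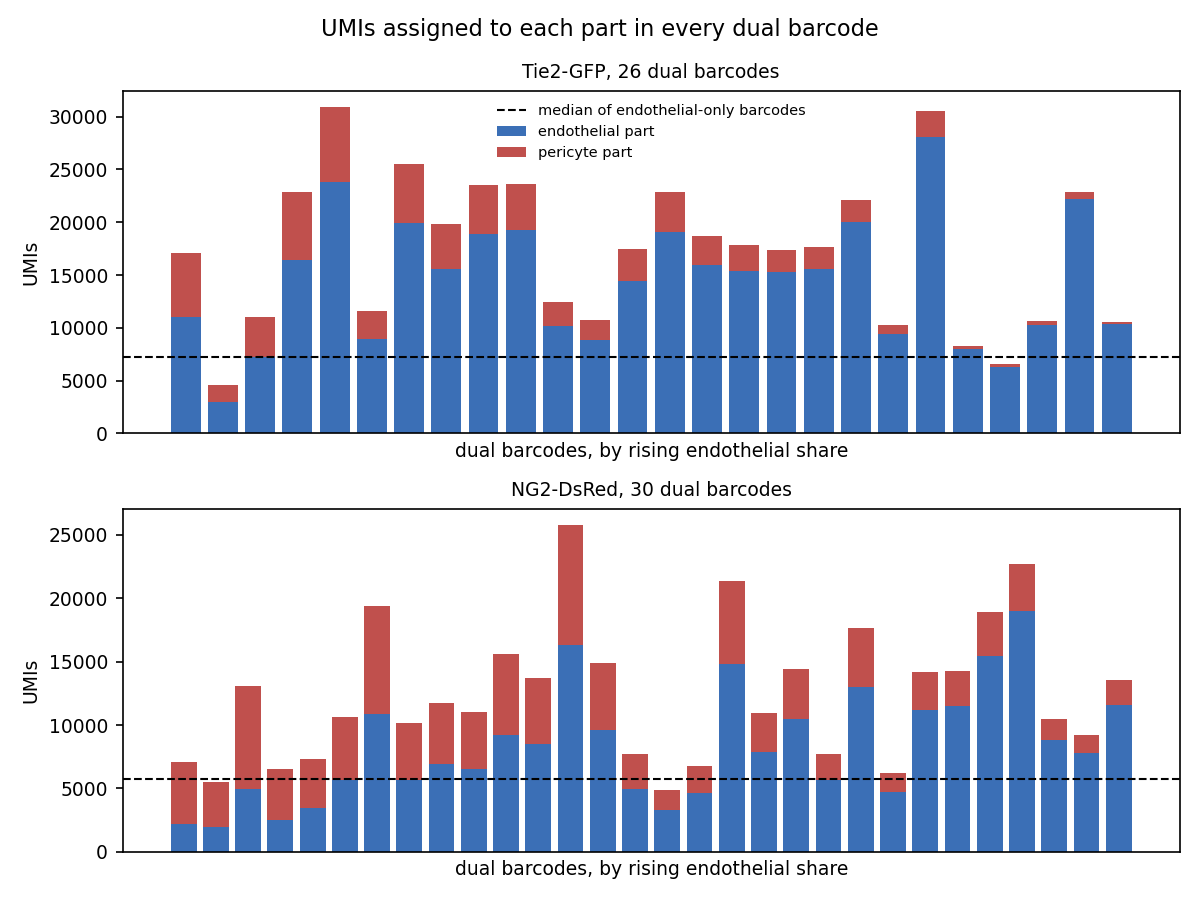
UMIs (linear axis from 0) assigned to the endothelial and pericyte part of each dual barcode, ordered by endothelial share, using the NG2-DsRed pericyte reference for Tie2-GFP and same-library references for NG2-DsRed; the dashed line is the median of endothelial-only barcodes. The pericyte part has a median of 2509.5 UMIs in Tie2-GFP and 3864 in NG2-DsRed, and endothelial parts mostly exceed the dashed line in Tie2-GFP.

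Sex-linked transcripts gave a readout that the rule did not use. Xist is transcribed from the inactive X chromosome of female cells, and 4 Y-linked genes are read only in male cells, so that each barcode of these mixed-sex pools can carry one, both or neither. In Tie2-GFP, 13 dual barcodes had Xist only, 10 had Y-linked UMIs only, 3 had neither and 0 of 26 had both, which allows a share of up to 11.5% by 3 counts and up to 13.2% by the exact interval. Of the 343 endothelial-only barcodes 5 (1.46%) had both. Sums of 1 endothelial-only and 1 pericyte-only barcode had both in 278 of 686 pairs (40.5%), although these pairs drew on only 2 pericyte-only barcodes, 1 with Xist and 1 with Y-linked UMIs. In NG2-DsRed, 17 dual barcodes had Xist only, 6 Y-linked only, 4 neither and 3 both, a share of 10.0% (2.11 to 26.5%). The 3 barcodes held 7, 9 and 11 Xist UMIs beside 5, 2 and 1 Y-linked UMIs.

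Single-program barcodes of NG2-DsRed had both in 0 of 15 endothelial-only and 1 of 87 pericyte-only cases, and summed pairs in 357 of 1305 (27.4%). The share of dual barcodes with transcripts of both sexes was therefore below that of the summed pairs in each library, as point values. The pairs reuse the same single-program barcodes, so their shares carry an error that was not estimated. The difference was not tested. Thinned to 3211 and 1762 UMIs per barcode, dual barcodes with both numbered 0 of 26 and 1 of 30 (3.33%). Only 23 and 26 dual barcodes carried any sex-linked UMI before thinning, which bounds how finely the share can be read, and a pair of cells from mice of the same sex cannot be told from a single cell by this measure.

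**Figure D4:**
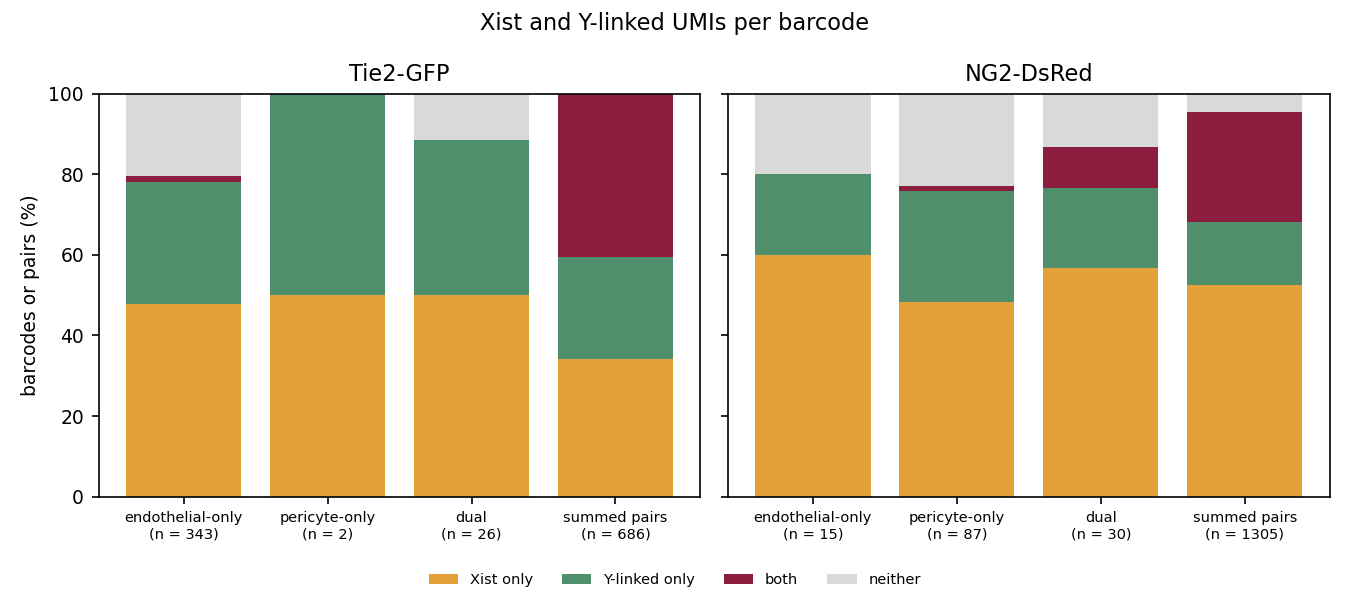
Percent of barcodes with UMIs of Xist only, of Y-linked genes only, of both or of neither, in each class and in all sums of 1 endothelial-only and 1 pericyte-only barcode; n is the number of barcodes or sums. Both were found in 0 of 26 and 3 of 30 dual barcodes, against 40.5% and 27.4% of the sums.

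Genes above any mix were sought next. No weighted sum can exceed the higher of its references, so a gene was called above if its dual level was at least 2 times the higher reference and the lower 95% bound of the ratio (exact conditional binomial) was over 1, and below by the mirror rule against the lower reference. In NG2-DsRed 32 of 5306 genes were called above, 0.603% of the genes examined, and 6 below (0.113%). With UMIs in at least 50% of the dual barcodes and at most 25% of them from 1 barcode, 10 of the 32 were left. In Tie2-GFP 193 of 8575 genes (2.25%) were above and 7 (0.0816%) below with its own 2 pericyte-only barcodes, 35 of the 193 within those minima. Of the 193, however, 190 had a dual level under the 458 CPM that 3 counts equal in these 2 barcodes, so that this reference was too shallow to show whether pericytes held as much. Cebpb, Mt1 and Gadd45b, the last named after its values were seen, were the 3 over it. With the NG2-DsRed pericyte reference it was 33 of 7456 (0.443%) above, 7 of them within the minima, and 30 (0.402%) below. With the deeper endothelial reference from Tie2-GFP, NG2-DsRed dual barcodes had 109 of 7529 genes (1.45%) above and 45 (0.598%) below. No gene was called above in both libraries when each had its own references, or with the NG2-DsRed pericyte reference for Tie2-GFP. With 2.25% or 0.443% of genes called in Tie2-GFP and 0.603% in NG2-DsRed, few or no shared genes would be found at random. An overlap of 0 is therefore no result about the libraries. With the 2 pericyte-only barcodes for Tie2-GFP and the Tie2-GFP endothelial reference for NG2-DsRed, 1 gene was called in both, A430005L14Rik, which met the minima in neither.

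Of the 7 Tie2-GFP genes within the minima with the NG2-DsRed pericyte reference, Mt1 had the highest ratio, and Mt2 was also among them. Both encode metallothioneins, small cysteine-rich proteins that bind zinc and copper and rise with metal load, glucocorticoid and oxidative stress. Neither was among the 10 highest with the 2 pericyte-only barcodes of Tie2-GFP. Mt1 stood at 2113 CPM (1979 to 2254) in dual barcodes, from 920 UMIs, against 449 CPM in endothelial-only barcodes (147 of 343 positive) and 0 UMIs in the 2 pericyte-only barcodes, which allows up to 458 CPM. It was read in 24 of 26 dual barcodes, whose levels ran from 0 over a median of 1564 to 8113 CPM and overlapped the endothelial-only barcodes, of which the highest reached 6980 CPM. Most dual barcodes thus held a UMI of the gene and most endothelial-only barcodes did not, and dual barcodes were also the deeper ones. The ratio to the higher reference was 4.71 (4.32 to 5.13), and 4.06 without the barcode that gave 18.4% of the UMIs. Mt2 stood at 308 CPM (258 to 364) against 118 in endothelial-only barcodes, a ratio of 2.60 (2.11 to 3.19), with UMIs in 18 of 26 dual barcodes. In NG2-DsRed neither gene passed: Mt1 was at 550 CPM in dual, 368 in endothelial-only and 367 in pericyte-only barcodes, and Mt2 at 74.7, 133 and 24.9 CPM.

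Intermediate cells also expressed Mt1 strongly, at 1089 CPM in Tie2-GFP and 1325 CPM in NG2-DsRed. With them as an additional reference the Tie2-GFP ratios dropped to 1.94 for Mt1 and 1.74 for Mt2, below the factor of 2. The 10 intermediate cell markers together were at 23.0 CPM in Tie2-GFP dual barcodes, from 10 UMIs with Dct highest at 16.1 CPM and 7 of the markers at 0, and none of the 26 barcodes had 3 or more of them. Of 9 metallothionein and zinc genes, a list added after the first results, 5 were tested with the NG2-DsRed pericyte reference and 2 (Mt1 and Mt2) were called above, against 0.443% of all genes. The list was made with both already known to be called, so nothing is read from this count. The zinc exporter gene Slc30a1, itself known to respond to zinc, stood at 172 CPM in Tie2-GFP dual and 233 in endothelial-only barcodes.

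Mt1 and Mt2 are neighbours on mouse chromosome 8 (GRCm38, plus strand, chr8:94179082-94180327 and chr8:94172664-94173568). Zinc acts on them through the factor MTF1, which binds metal response elements, and their upstream windows are shown because both were called above any mix in Tie2-GFP, Mt1 with the highest ratio of the 7. Capitals mark matches to the core letters TGCACNC or TGCGCNC on either strand, in 240 bases of RefSeq sequence (GRCm38.p6) at chr8:94178839-94179078 for Mt1 and chr8:94172368-94172607 for Mt2, both on the plus strand and read 5′ to 3′.
Mt1: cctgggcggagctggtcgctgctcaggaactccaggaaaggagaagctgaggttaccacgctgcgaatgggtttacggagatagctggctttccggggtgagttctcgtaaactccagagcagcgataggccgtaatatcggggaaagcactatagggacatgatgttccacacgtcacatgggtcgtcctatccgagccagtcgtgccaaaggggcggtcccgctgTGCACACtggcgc
Mt2: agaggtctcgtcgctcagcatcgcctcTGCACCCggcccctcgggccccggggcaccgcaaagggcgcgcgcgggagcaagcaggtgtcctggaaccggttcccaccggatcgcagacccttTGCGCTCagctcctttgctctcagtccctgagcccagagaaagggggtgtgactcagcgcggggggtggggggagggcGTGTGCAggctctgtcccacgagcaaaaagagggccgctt
The Mt1 window held 1 match, beginning 23 bases before the RefSeq start, and the Mt2 window 3, beginning 223, 128 and 50 bases before it. Of 32851 such windows of all genes, 20.4% held at least 1 match and 1.18% at least 3. Both windows end before the RefSeq start, so matches nearer to it or beyond it were not counted. The numbers are thus not those of a whole promoter. A match is a description of the letters, not of binding in these cells.

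The other 5 genes within the minima were Tiparp, Irs2, Gxylt1, Ufd1 and Maff. Tiparp, a target of the aryl hydrocarbon receptor, stood at 390.4 CPM (334 to 454) in dual barcodes and 132 in endothelial-only barcodes, with UMIs in 23 of 26 dual barcodes and a ratio of 2.96 (2.46 to 3.56). Maff, a small Maf transcription factor, had a ratio of 2.35 (1.81 to 3.03), and Irs2, an insulin receptor adaptor, of 2.79 (1.38 to 6.22), the latter against 10 UMIs in the pericyte reference. Irs2 had 1 UMI in 343 endothelial-only barcodes against 43 in 14 of 26 dual barcodes. With members and references taken at 3 or more genes of each list, and same-library references, its ratio was 0.83 and it was not called. Gxylt1, a xylosyltransferase of Notch glycosylation, had a ratio of 2.62 (1.85 to 3.67) and Ufd1, a cofactor in protein degradation, of 2.59 (1.17 to 6.51), whose lower bound was 0.98 without its largest barcode. In NG2-DsRed dual barcodes Tiparp (83.0 CPM) and Maff (94.0 CPM) were not called. Irs2 (2 UMIs), Gxylt1 (12) and Ufd1 (10) were under the minimum of 20 UMIs with the higher reference and were not tested there, and the ratio of Gxylt1, 3.24 (0.48 to 139), was open in both directions. Il6, a cytokine gene named after its values were seen, had a ratio of 22.95, but 49.2% of its 61 UMIs came from 1 barcode.

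With the 2 pericyte-only barcodes of Tie2-GFP as reference, the 10 highest genes within the minima were Plxdc2, Irs2, Cygb, Itgb5, Cd63, Lhfp, Cystm1, Ecm2, Cebpb and Antxr1. All but Cebpb were under the 458 CPM floor of that reference, and several were read in the pericyte-only barcodes of the other library. The tetraspanin gene Cd63 stood at 241 CPM in Tie2-GFP dual, 8.26 in endothelial-only, 876 in NG2-DsRed pericyte-only and 2013 in Tie2-GFP intermediate cell barcodes, and Cygb, the cytoglobin gene, at 149, 0.718 and 224 CPM. Plxdc2 had 36 UMIs in Tie2-GFP dual barcodes, none in either reference and 238 CPM in NG2-DsRed pericyte-only barcodes. Against the NG2-DsRed reference Irs2 alone of the 10 stayed above. Cebpb stood at 1626 CPM in Tie2-GFP dual, 89.1 in endothelial-only and 1046 in NG2-DsRed pericyte-only barcodes, and its ratio went from 5.33 (1.47 to 44.1) to 1.56 (1.36 to 1.79). In NG2-DsRed dual barcodes it was at 456 CPM, below the pericyte-only level.

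In NG2-DsRed the 10 genes rested on few reference UMIs. Thbd, thrombomodulin, the endothelial anticoagulant receptor, stood at 166 CPM (127 to 214) in dual barcodes, in 20 of 30, against 40.9 in endothelial-only (4 UMIs) and 39.2 in pericyte-only barcodes, a ratio of 4.05 (1.50 to 15.4). Slfn2, a Schlafen gene, stood at 111 CPM (79.0 to 151), in 17 of 30, with 3 UMIs in endothelial-only and 0 in pericyte-only barcodes, a ratio of 3.60 (1.15 to 18.2). The ratios of Pon2, Eif1a, Kifc3, Anapc16, Ap2b1, Rara, Zhx3 and Dnajb1 ran from 2.13 to 3.04. Against the 343 endothelial-only barcodes of Tie2-GFP only Slfn2 of the 10 was still above, at 4.65 (3.06 to 6.99), while Thbd was at 0.46 and Dnajb1, a heat-shock cochaperone gene, at 0.35 of the higher reference. In Tie2-GFP dual barcodes Slfn2 stood at 25.3 CPM, level with 23.7 in endothelial-only barcodes.

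The 10 highest NG2-DsRed genes with the Tie2-GFP endothelial reference were Slfn2, Id1, Rnaset2b, Gm11808, Rpl9-ps6, Anapc10, Pllp, Irf7, Jtb and Slu7. Id1, an inhibitor of differentiation that responds to BMP signals, had a ratio of 4.605 (4.00 to 5.29) from 327 UMIs, and 4.26 without its largest barcode. Within its own library, however, Id1 stood at 904 CPM in dual and 767 in endothelial-only barcodes, against 196 in endothelial-only barcodes of Tie2-GFP. Rnaset2b, a ribonuclease gene, was likewise at 252 CPM in dual and 235 in endothelial-only barcodes of NG2-DsRed and at 6.82 in those of Tie2-GFP. Gm11808 was at 1056, 849 and 168 CPM in the same 3 classes. Their levels in the endothelial-only barcodes thus differed between the libraries, and of the 10 genes Slfn2 alone was also called with both references of its own library. The matrix headers of the libraries name different software versions, and what that adds to ratios across libraries was not tested. Clu, Airn, Galnt7 and AY036118 were among the lowest genes below both of these references, with 3, 2, 2 and 59 UMIs in dual barcodes.

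**Figure D5:**
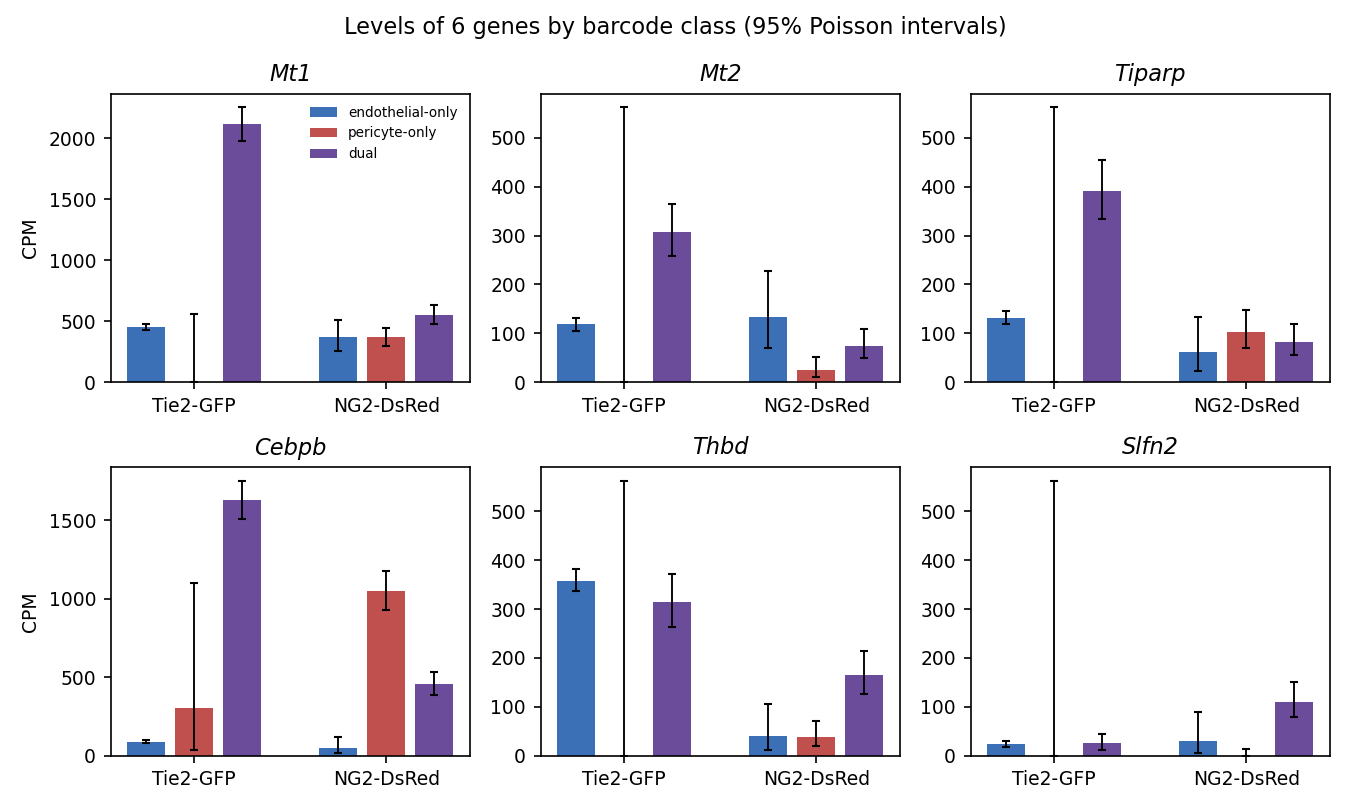
Levels (CPM, linear axis from 0) of Mt1, Mt2, Tiparp, Cebpb, Thbd and Slfn2 in endothelial-only, pericyte-only and dual barcodes; bars are summed levels and whiskers 95% Poisson intervals, which are wide for the 2 pericyte-only barcodes of Tie2-GFP. Dual bars are the highest of their library for Mt1, Mt2, Tiparp and Cebpb in Tie2-GFP. In NG2-DsRed they are the highest for Thbd, Slfn2 and Mt1, the last not called above, whereas Cebpb is highest in pericyte-only barcodes.

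Some genes above the mix in NG2-DsRed came from single barcodes. Apoe had a ratio of 5.04, but 80.9% of its 728 UMIs came from 1 barcode, and the ratio was 1.00 without it. That barcode held all 10 macrophage markers, and 122 of the 130 macrophage marker UMIs of the 30 dual barcodes, with Lyz2 the most abundant of them at 133 CPM. All 48 Lyz2 UMIs lay in 1 barcode. Intermediate cell markers summed to 205 CPM (74 UMIs), with Dct at 147 CPM, Dct being called above at 2.29 with 43.4% of its UMIs from 1 barcode and 1.37 without it. In all, 4 of 30 NG2-DsRed and 0 of 26 Tie2-GFP dual barcodes had 3 or more markers of any other cell type.

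Markers of the remaining cell types were low in dual barcodes. In Tie2-GFP dual barcodes marginal cell markers summed to 34.5 CPM, basal cell markers to 9.19, fibrocyte and fibroblast markers to 68.9, macrophage markers to 9.19, other leukocyte markers to 2.30, platelet markers to 4.59 and Schwann cell markers to 9.19. Spindle and epithelial markers summed to 234 CPM, all of it Anxa1, a gene that endothelial-only barcodes also expressed. In NG2-DsRed dual barcodes these sums were 19.4 (marginal), 19.4 (basal), 91.3 (fibrocyte and fibroblast), 113 (spindle and epithelial), 13.8 (platelet), 22.1 (Schwann) and 0 CPM (other leukocytes). Erythroid markers stood at 9.19 and 27.7 CPM in dual barcodes. In the endothelial-only barcodes of Tie2-GFP they reached 3589 CPM, where 8308 of 9994 UMIs came from 1 barcode.

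Genes through which endothelium and pericytes signal or adhere were examined as a list of 30. For this and the following lists, the list sums and calls of Tie2-GFP use the NG2-DsRed pericyte reference unless stated. Over all genes 0.603% were above and 0.113% below in NG2-DsRed, and 0.443% and 0.402% in Tie2-GFP, so that a count of 0 among the genes of one list is near the background and is no result about the list. In NG2-DsRed 27 were tested and none was above or below both references, with a median ratio to the higher reference of 0.52 against 0.75 over all genes tested. The list summed to 4314 CPM in dual barcodes and 4715 in the mix. In Tie2-GFP none of 28 was above or below with the NG2-DsRed pericyte reference, with sums of 4695 and 5321 CPM. With the 2 pericyte-only barcodes of that library, 1 of 25 was above, against 2.25% of all genes. The ligand gene Pdgfb was at 160 CPM in NG2-DsRed dual barcodes, 123 in endothelial-only and 32.03 in pericyte-only barcodes, and at 140.1 against 241 in Tie2-GFP dual and endothelial-only barcodes. Ednra, the pericyte endothelin receptor, was at 105 CPM in NG2-DsRed dual barcodes between 0 and 562, while its ligand gene Edn1 was at 277 CPM between 379 in endothelial-only and 0 in pericyte-only barcodes. Ednra was thus below its pericyte-only level beyond counting error, at 0.19 of it (0.13 to 0.27), whereas for Edn1 the ratio to endothelial-only barcodes, 0.73 (0.50 to 1.10), did not leave counting error.

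The contact list holds 4 connexin genes. Gjc1, connexin 45, was at 232 CPM in NG2-DsRed dual barcodes, between 40.9 and 619, and Gja4, connexin 37, at 85.7 between 40.9 and 591. Gja1, connexin 43, was at 38.7 CPM there, between 123 in endothelial-only and 0 in pericyte-only barcodes, and at 248 CPM in Tie2-GFP dual against 353 in endothelial-only barcodes. Gja5, connexin 40, had 0 UMIs in the dual barcodes of both libraries. The 14 basement membrane genes summed to 3388 CPM in NG2-DsRed dual barcodes and 3552 in the mix, and to 3623 and 3824 CPM in Tie2-GFP, with none of 12 and none of 13 tested genes above or below. With the 2 pericyte-only barcodes of Tie2-GFP, 1 of 12 was above in that library, against 2.25% of all genes. Col4a1, the collagen IV chain, was at 506 CPM in NG2-DsRed dual barcodes between 460.5 in endothelial-only and 840.0 in pericyte-only barcodes. Lama2, a laminin chain of the pericyte side, was at 58.1 CPM there between 0 and 331, and at 71.2 CPM in Tie2-GFP dual barcodes against 0 in endothelial-only ones.

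Tip cell genes, which mark the leading cell of a vessel sprout, gave no member above or below in either library with these references. Of 15 genes, 7 in NG2-DsRed and 12 in Tie2-GFP were tested, with sums of 910 and 1141 CPM in dual barcodes against 1138 and 1211 in the mix. With the Tie2-GFP endothelial reference, 1 of 12 tested NG2-DsRed genes was below, against 0.598% of all genes. Nid1, a basement membrane linker, was at 69.1 CPM in NG2-DsRed dual barcodes between 10.2 and 328. Nrp1, a VEGF and semaphorin coreceptor, was at 401 between 246 and 726, and Pgf, placental growth factor, at 27.7 between 0 and 196. In Tie2-GFP dual barcodes these 3 were at 124 (Nid1), 273 (Nrp1) and 18.4 CPM (Pgf), against 60.0, 198 and 0.718 in endothelial-only barcodes. Each was therefore between its references in NG2-DsRed, with the pericyte-only level the highest.

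Immediate-early genes respond to dissociation. The 19 immediate-early genes summed to 50828 CPM in NG2-DsRed dual barcodes and 47335 in the mix, and to 35186 and 36558 in Tie2-GFP, with none of 17 and none of 19 tested genes above or below. With the Tie2-GFP endothelial reference, the NG2-DsRed sum was 51064 CPM against 35074 in the mix. Klf2 was called above among 19 there, against 1.45% of all genes. Fos alone was at 7923 CPM in NG2-DsRed dual barcodes, beside 7808 in endothelial-only and 7076 in pericyte-only barcodes. The 13 heat-shock genes summed to 6963 CPM against 6905 in the mix in NG2-DsRed, where Dnajb1 was above and Hspa1b below among 11 tested. With the Tie2-GFP endothelial reference the mix held 17743 CPM, so that the dual sum was 0.39 of it. Hspa1b is nearly identical in sequence to Hspa1a, so the split of reads between them is uncertain. In Tie2-GFP they summed to 17136 CPM against 21088 in the mix, or 71.0% of the endothelial-only level, with none of 13 called. With the 2 pericyte-only barcodes of that library, Hsph1 and Hspe1 were below among 13, against 0.0816% of all genes.

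The 12 mesenchymal transition genes summed to 1845 CPM in NG2-DsRed dual barcodes (2127 in the mix) and to 2294 CPM in Tie2-GFP (2163), with none above or below with these references. With the 2 pericyte-only barcodes of Tie2-GFP, 1 of 9 was above in that library, against 2.25% of all genes. With the Tie2-GFP endothelial reference, 1 of 10 was below in NG2-DsRed, against 0.598% of all genes. Twist1, a mesenchymal regulator read in pericytes, was at 58.1 CPM in NG2-DsRed dual barcodes between 0 and 142, and at 41.3 CPM in Tie2-GFP dual barcodes against 1.08 in endothelial-only ones. Cell division genes summed to 127 and 176 CPM against 126 and 174 in the mix, with none called.

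Genes below both references were 6 in NG2-DsRed, in none of which the lower reference had 50 UMIs. In Tie2-GFP with the NG2-DsRed pericyte reference the lowest of the 28 with at least 50 UMIs in the lower reference were Khdrbs3, Galnt18, Clu, Crtc2 and Alg5. Khdrbs3, an RNA-binding protein gene, had 0 UMIs in 26 dual barcodes, against 73 in endothelial-only barcodes and 21 in the pericyte reference. Clu, clusterin, a secreted chaperone, had 10 UMIs against 240 and 38, with 60.0% of the 10 from 1 barcode.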

How the data were processed

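For both libraries the authors deposited 10x Chromium matrices of raw UMI counts per gene and barcode, not normalized. The matrix headers name Cell Ranger 7.0.0 (Tie2-GFP) and software version 3.0.0 (NG2-DsRed), and the submitters' processing notes name bcl2fastq 2.20.0.422 and mm10. Aligner settings and intron counting are not given in the sources used here. Genes were matched by Ensembl ID, and 171 and 4 barcodes over the mitochondrial limit were left out. No doublet was removed. Levels, mixing weights and exact intervals were computed with Python 3.11.15, NumPy 2.4.6, SciPy 1.17.1 and pandas 2.3.3 (Scrublet through Scanpy 1.11.5, plots with Matplotlib 3.10.9), and the gene comparison was tested on simulated data. Genes compared had at least 20 UMIs over dual barcodes and the higher reference, mitochondrial genes excepted. Genes named were the 12 rule genes, the reporter and tip cell genes, members of the described lists and, per comparison, the 10 highest called above and the 5 lowest called below within the minima given; others are marked as chosen after their values were seen. A gene that this rule names is not reported here. Alternatives varied the member rule, depth limits, references, weighting, ribosomal genes and call thresholds. Members and lists were chosen with earlier results of these data known.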

Additional observations from a re-analysis of the deposited data

How the results depend on the processing

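No paired analysis was possible because each reporter line gave 1 library from its own pool of mice, so no replicate could be left out either. The median depth of dual barcodes stayed within its interval under every alternative tried on it. The distance to the mix in Tie2-GFP (10.9%) was 12.5% and 9.55% with at least 5 and at least 3 genes of each list, 11.1% with the study's limits, 10.1% with the NG2-DsRed pericyte reference, 11.8% with barcodes weighted equally, 12.1% without ribosomal genes and 10.02% with contractile cells. In NG2-DsRed (13.1%) it was 13.6% and 12.6% with at least 5 and at least 3 genes, 18.5% with the Tie2-GFP endothelial reference, 14.3% with equal weights, 13.8% without ribosomal genes and 14.5% with deep references. The endothelial weight in Tie2-GFP (93.2%) was 92.1% and 92.2% with at least 5 and at least 3 genes of each list, 93.0% with the study's limits on genes and UMIs, 93.6% with barcodes weighted equally, 92.0% without ribosomal genes, 91.9% with intermediate cells and 82.9% with contractile cells as an additional reference, 95.1% with deep references and 83.6% with the NG2-DsRed pericyte reference. In NG2-DsRed (67.2%) the same changes gave 66.9%, 65.6%, 66.1%, 66.3%, 62.8%, 66.3%, 66.1%, 62.5% and, with the Tie2-GFP endothelial reference, 65.6%, and the 5% mitochondrial limit gave 67.5%. Genes above any mix in Tie2-GFP (193) were 33 with the NG2-DsRed reference, 100 with intermediate cells, 27 with contractile cells, 303 at a ratio of 1.5, 81 with at least 50 UMIs and 2 (Cebpb and Mt1) with the interval required against each reference. In NG2-DsRed (32) they were 109 with the Tie2-GFP reference, 19 with at least 5 genes of each list, 19 with intermediate cells, 8 with at least 50 UMIs and 21 with both intervals. Dual shares after thinning were 2.43% and 2.82%. The contractile reference and the interval against each reference were chosen after seeing the data. Few reference UMIs limit the calls: 2 pericyte-only barcodes in Tie2-GFP and 15 endothelial-only barcodes in NG2-DsRed. Of the genes called, these crossed the reference they were called against, a ratio of 1. In Tie2-GFP with the NG2-DsRed reference the ratios to the higher reference were 0.35 (Plxdc2), 0.67 (Cygb), 0.22 (Itgb5), 0.28 (Cd63), 0.17 (Lhfp), 0.86 (Cystm1), 0.27 (Ecm2) and 0.95 (Antxr1), and those to the lower reference 4.26 (Hsph1), 1.23 (Hspe1), 1.23 (Samd9l) and 1.24 (Gm12216). With contractile cells they were 0.41 (Plxdc2), 0.72 (Cygb), 0.24 (Itgb5), 0.31 (Cd63), 0.17 (Lhfp), 0.96 (Cystm1) and 0.34 (Ecm2), and 3.76 (Hsph1), 1.21 (Hspe1), 2.72 (Samd9l) and 1.0016 (Gm12216). With intermediate cells they were 0.85 (Plxdc2), 0.12 (Cd63) and 0.14 (Cystm1), and 6.87 (Hsph1), 13.9 (St8sia4, against the floor of 3 counts) and 8.78 (Gm12216). With at least 3 genes of each list they were 0.83 (Irs2) and 0.34 (Cystm1), and 1.18 (Hsph1) and 1.04 (Hspe1). In NG2-DsRed the ratios to the higher reference were 0.46 (Thbd), 0.63 (Eif1a), 0.698 (Rara), 0.996 (Zhx3) and 0.35 (Dnajb1) with the Tie2-GFP endothelial reference, 0.64 (Kifc3) and 0.0062 (Dct) with intermediate cells, and 0 (C1qb), 0 (Lyz2) and 0.81 (Apoe) without barcodes that held 3 markers of another type. The cause of these shifts was not tested.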

Other observations

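Endothelial zonation genes, lists added after the first results, were read in the dual barcodes without a test. In NG2-DsRed 8 capillary genes summed to 2071 CPM in dual barcodes and 1292 in the fitted mix, led by the amino acid transporter gene Slc7a5 at 675 CPM, while 8 venous genes summed to 429 and 1413 CPM, a mix that rests on 15 endothelial-only barcodes. With the 343 endothelial-only barcodes of Tie2-GFP as reference, the venous sums were 431 and 668 CPM. In Tie2-GFP, with the NG2-DsRed pericyte reference, the capillary genes summed to 1567 and 1848 CPM and the venous genes to 440 and 646 CPM. The 10 arterial genes summed to 2387 and 2497 CPM in NG2-DsRed and to 1912 and 1937 CPM in Tie2-GFP, where Mgp, a matrix Gla protein gene that mural cells also express, made up 1183 CPM.

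The doublet caller Scrublet marked 2 of 26 dual barcodes and 5 of 343 endothelial-only barcodes in Tie2-GFP, and 2 of 30 dual, 0 of 15 endothelial-only and 0 of 87 pericyte-only barcodes in NG2-DsRed, out of 8 of 462 and 7 of 197 marked in all. Scrublet simulates doublets from the barcodes of the library itself, which held few of the single class that the reporter does not mark. An unmarked dual barcode is therefore not shown to be a single cell.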
